A study of Mus musculus with 24 samples.

Results

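Gene expression in denervated calf muscle was compared between mice lacking MuRF1 and wild type mice 3 days after nerve injury. The members were the 3 arrays of denervated MuRF1 knockout muscle and the 3 arrays of denervated wild type muscle at day 3, 6 of the 24 arrays in the series. All 11317 genes detected across the series were compared. The mice were labelled C57/Bl6, in both genotypes, and 6 months old. The tissue was triceps surae, the calf muscle group. The sciatic nerve of one leg had been resected 3 days before RNA was taken. Further pairs of groups used below, 3 arrays per genotype each, were control muscle of day 3 and of day 14, from animals without surgery, and denervated muscle of day 14. How the MuRF1 allele was made is not given in the sources used here, and neither is whether replicates were different animals. P-values therefore speak only of the spread among arrays, which may be technical. That spread was pooled over the 8 groups of the series.

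MuRF1 is a RING finger ubiquitin ligase of the muscle sarcomere and is encoded by Trim63. It attaches ubiquitin to thick-filament and other muscle proteins, which marks them for the proteasome, and its mRNA rises in many forms of muscle wasting, denervation included. Mice without it lose less muscle after denervation. Loss of nerve supply also changes the mRNAs of contractile proteins, energy metabolism and the neuromuscular synapse within days.

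Levels are log2 normalized intensities, in which 1 unit is a doubling, and differences are knockout minus wild type with the standard error of the fit. A gene is said to be called, or to have risen or fallen in the knockout, when its Benjamini-Hochberg adjusted p from limma was under 0.05 over all genes tested. The defining skeletal muscle genes were present as labelled: 11 of 12 were tested, and all 11 were detected on every array of both groups. Knockout replicates 2 and 3 had 18434 and 18520 detected probes, against 17055 for knockout replicate 1 and 16266 to 16815 for the wild type arrays. Arrays of a group correlated at 0.980 to 0.990 in the knockout and at 0.988 to 0.992 in the wild type. The median standard deviation of a gene within a group was 0.234 in the knockout and 0.167 in the wild type.

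Trim63 stood at 11.37, 10.73 and 11.04 on the 3 wild type arrays and at 5.30, 5.33 and 5.14 on the 3 knockout arrays, where no array detected it. Its level was at least 44.7-fold lower in the knockout, with an adjusted p of 1.17e-15 by limma. The means in control muscle of day 3 were 9.46 in wild type and 5.01 in knockout. No knockout array of either group detected Trim63. Denervation raised it by 1.59 in wild type, a contrast that called 37.5% of all genes. Where the single Trim63 probe lies relative to the deleted part of the gene is not given in the sources used here. The RefSeq sequence of the 250 bases before the Trim63 start (GRCm38.p6, chr4:134314870-134315119, plus strand) is shown because this gene carries the genotype. Capitals mark a forkhead motif, TGTTTAC, whose first base lies 194 bases before the start, and a TATA box, TATAAA, at 31 bases before it:
Trim63: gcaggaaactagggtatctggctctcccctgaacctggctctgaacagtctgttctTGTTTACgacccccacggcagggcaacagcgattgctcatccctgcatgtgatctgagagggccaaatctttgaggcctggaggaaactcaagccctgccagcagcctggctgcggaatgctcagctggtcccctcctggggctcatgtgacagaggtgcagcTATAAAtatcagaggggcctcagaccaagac
On either strand, TGTTTAC occurs in 3.17% and TATAAA in 12.4% of 32851 promoter windows of this length, and the 2 motifs do not overlap here. A match is a description of letters and not a site of binding.

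Across all genes, 811 of 11317 were called, which is 7.17%. Of these, 428 (3.78%) were higher and 383 (3.38%) lower in the knockout, and 112 (0.99%) differed at least 2-fold, 55 up and 57 down. The knockout and wild type arrays did not overlap for 750 of the 811 called genes, and for 2805 (24.8%) of all genes tested. The median difference of all genes was 0.03. It was 0.22 when arrays were centred on their medians in place of quantile normalization, and the split then became 1145 higher and 149 lower.

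The number of calls rested on which arrays entered the fit. Leaving out knockout replicate 1 gave 2168 calls, and leaving out knockout replicate 2 or 3 gave 180 or 197. Without wild type replicate 1, 2 or 3 the counts were 576, 338 and 213. With knockout replicates 2 and 3 both left out, 28 genes (0.247%) were called, 27 of them among the 811, and the lone knockout array was assumed to vary like the other groups. With the number of detected probes as a covariate 40 (0.353%) were called, 33 of them among the 811. Knockout replicate 1 still deviated from the wild type mean in the called direction for 428 of 428 higher and 383 of 383 lower genes. Its deviations were smaller: the median for the higher genes was 0.37 on replicate 1, 0.77 on replicate 2 and 0.81 on replicate 3, and for the lower genes -0.43, -0.84 and -0.82. These directions are in part fixed by calling the genes on the same arrays.

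**Figure D1:**
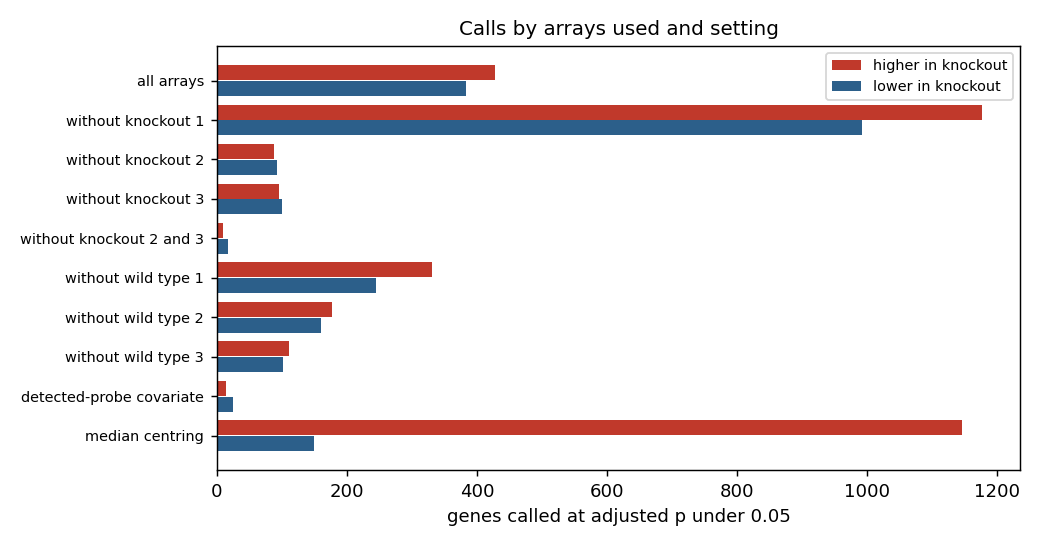
Number of genes called at adjusted p under 0.05 (horizontal axis), higher (red) and lower (blue) in the knockout, with all arrays, without single arrays, without knockout replicates 2 and 3, with the detected-probe covariate and with median centring. Counts run from 28 without knockout replicates 2 and 3 to 2168 without knockout replicate 1, and median centring gives 1145 higher against 149 lower.

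After removal of any single array of the 6, 128 genes kept their call, 60 higher and 68 lower. Of all genes, 20 (0.177%) kept it under every single removal, the covariate and the joint removal of knockout replicates 2 and 3. Of these, 6 (0.053%) were higher in the knockout and 14 (0.124%) were lower. The higher ones were Wdfy1, Hyi, Neu2, Ramp1, Chrna10 and Htra3. The largest of the lower ones were Trim63, Pnrc2, Zbtb8os, Necap2, Orm2, Gsta1, Gsta2 and Eya3.

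Neu2, a cytosolic sialidase that removes sialic acid from glycoconjugates, was at 9.23, 8.41 and 9.28 in wild type and at 10.82, 10.87 and 10.71 in knockout. The groups did not overlap, and the difference was 1.83 (SE 0.18, adjusted p = 2.72e-06 by limma). The genotype difference was -0.21 in control muscle of day 3 and 0.73 at day 14 of denervation (adjusted p = 0.0178 by limma). Denervation at day 3 changed Neu2 by -3.43 in wild type and by -1.39 in knockout, so both groups lay below their control muscle. Ramp1, a co-receptor for calcitonin gene-related peptide, was at 7.24, 7.57 and 7.94 in wild type and at 8.97, 8.59 and 8.77 in knockout, again without overlap. Its difference was 1.19 (SE 0.17, adjusted p = 0.00039 by limma). With denervation at day 3 Ramp1 changed by -3.87 in wild type and by -2.76 in knockout. Chrna10, a nicotinic acetylcholine receptor subunit best known from hair cells, was at 8.82, 8.51 and 8.45 in wild type and at 9.50, 9.67 and 9.60 in knockout. The difference of 1.00 (SE 0.13, adjusted p = 0.000138 by limma) came from the brighter of 2 probes, and the other probe gave 0.03. At day 14 of denervation the difference was 0.54 (adjusted p = 0.0164 by limma). With denervation at day 3 Chrna10 changed by -1.73 in wild type and by -0.53 in knockout. Htra3, a secreted serine protease, was higher by 0.90 (adjusted p = 0.000635 by limma), with 0.43 on its other probe. It was also higher in control muscle of day 3, by 0.62 (adjusted p = 0.0379), while its difference at day 14 of denervation was 0.19 (0.46, by limma).

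Orm2, which encodes an alpha-1-acid glycoprotein of the acute phase response, was the largest fall among these 20 genes that lay more than 10 Mb from Trim63. It stood at 11.73, 10.9997 and 11.87 in wild type and at 9.90, 8.89 and 8.19 in knockout. The groups did not overlap, and the difference was -2.54 (SE 0.30, adjusted p = 3.37e-05 by limma). No array of control muscle of day 3 detected it in either genotype. Denervated muscle was therefore at least 52.1-fold higher than control muscle in wild type and at least 9.02-fold higher in knockout, where the contrast called 35.8% of all genes. Both bounds use the same denervated arrays as the genotype contrast. At day 14 the genotype difference was 0.03. The RefSeq window before the Orm2 start (GRCm38.p6, chr4:63362199-63362448, plus strand) is shown because Orm2 is on the chromosome of Trim63 but far from it, with the palindrome TTGCGCAA, a C/EBP motif, 120 bases before the start and TATAAA at 33 bases in capitals:
Orm2: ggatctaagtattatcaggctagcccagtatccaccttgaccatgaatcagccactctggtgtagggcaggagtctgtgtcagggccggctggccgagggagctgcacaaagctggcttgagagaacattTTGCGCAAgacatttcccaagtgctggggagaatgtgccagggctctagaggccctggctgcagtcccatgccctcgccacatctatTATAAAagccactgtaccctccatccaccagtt
TTGCGCAA, which reads the same on both strands, occurs in 0.164% of the same windows.

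Gsta1 and Gsta2 encode alpha-class glutathione S-transferases, which conjugate glutathione to electrophiles. Gsta1 was at 7.48, 7.40 and 7.78 in wild type and at 5.19, 4.99 and 5.001 in knockout, where no array detected it, and so was at least 3.97-fold lower (adjusted p = 2.09e-05 by limma). Gsta2 was at 7.88, 8.06 and 8.22 in wild type and at 5.75, 5.97 and 5.72 in knockout, a difference of -2.24 (SE 0.27, adjusted p = 6.29e-05 by limma), with -2.09 on its other probe. Both genes were undetected in control muscle of day 3. At day 14 of denervation the differences were -1.56 for Gsta1 and -1.28 for Gsta2 (adjusted p = 0.00179 and 0.00739 by limma). The genes are close paralogs, and the probes may read both. Their RefSeq windows (GRCm38.p6, chr9:78230419-78230668, plus strand, and chr9:78347146-78347395, minus strand) are shown because they moved together, and share 184 of 261 aligned columns (70.5%). The capitals mark TATAAA on the reverse strand of the Gsta2 window, 246 bases before the start:
Gsta1: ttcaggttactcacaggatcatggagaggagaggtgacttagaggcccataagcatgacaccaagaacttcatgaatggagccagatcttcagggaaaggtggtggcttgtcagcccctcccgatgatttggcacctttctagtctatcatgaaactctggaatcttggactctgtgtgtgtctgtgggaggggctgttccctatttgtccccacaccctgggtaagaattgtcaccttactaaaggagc
Gsta2: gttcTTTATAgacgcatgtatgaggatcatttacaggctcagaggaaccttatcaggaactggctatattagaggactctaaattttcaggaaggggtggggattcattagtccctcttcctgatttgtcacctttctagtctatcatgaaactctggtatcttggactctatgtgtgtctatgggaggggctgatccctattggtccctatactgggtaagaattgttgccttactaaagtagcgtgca
TGTTTAC, TTGCGCAA and the antioxidant response core TGACNNNGC, which 10.2% of windows hold, were not in these letters on either strand.

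**Figure D2:**
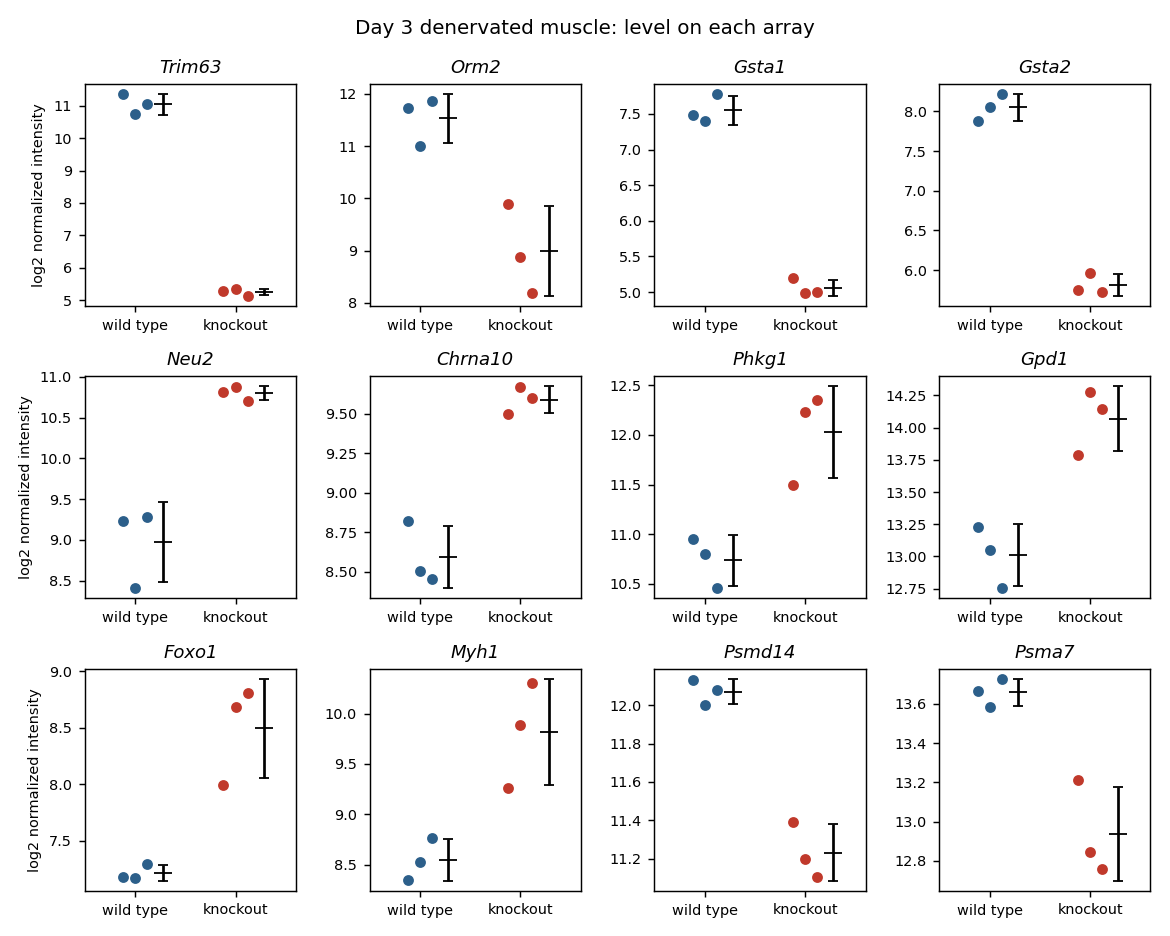
Level on each array (log2 normalized intensity, own vertical axis per gene) of 12 genes in denervated muscle of day 3, wild type in blue and knockout in red, with the group mean and standard deviation in black. No knockout point overlaps a wild type point in any panel. Knockout replicate 1, the leftmost red point, lies nearest to the wild type for Orm2, Gsta1, Chrna10, Phkg1, Gpd1, Foxo1, Myh1, Psmd14 and Psma7.

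Of the other large rises, Ddit4l, an inhibitor of mTORC1 signalling also called REDD2, was at 12.15, 12.28 and 11.68 in wild type and at 13.52, 14.04 and 13.80 in knockout, a difference of 1.75 (SE 0.28, adjusted p = 0.00103 by limma). Fgfbp1, a secreted carrier of fibroblast growth factors, was detected on no wild type array and on all 3 knockout arrays, at least 2.55-fold higher. It was detected on all 3 arrays of both genotypes in control muscle of day 3, at means of 9.47 and 8.49. Npr3, the clearance receptor of natriuretic peptides, rose by 1.73 (adjusted p = 0.00148 by limma), and its other 4 probes gave 0.17 to 1.14. Cops8, a subunit of the COP9 signalosome, was higher by 2.73, but its wild type arrays stood at 8.16, 8.10 and 10.61 and its knockout arrays at 11.53 to 11.91. Thap4 had the same shape, with wild type arrays at 9.47, 9.48 and 10.62 and a difference of 1.48. Wild type replicate 3 is the array nearest to the knockout for both genes. Ccdc110, a coiled-coil protein, and Zfp2, a zinc finger protein, were detected on no wild type array and on all 3 knockout arrays, at least 2.82-fold and at least 1.55-fold higher. Erdr1 was at 9.59, 9.77 and 10.08 in wild type and at 11.80, 11.56 and 11.13 in knockout, a difference of 1.69 (adjusted p = 0.0198 by limma). The call of Ccdc110 was kept without any 1 array. Erdr1 lost its call without any 1 wild type array or knockout replicate 2 (adjusted p = 0.051 to 0.089) and Zfp2 without wild type replicate 3 or knockout replicate 2 or 3 (0.067 to 0.089, by limma).

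Of the falls away from chromosome 4, Xirp2, an actin-binding repeat protein of the muscle membrane and Z-disc, was at 13.19, 13.23 and 13.11 in wild type and at 9.80, 10.89 and 10.83 in knockout. The difference was -2.67 (SE 0.57, adjusted p = 0.00895 by limma) on the brighter probe and -0.45 on the other. At day 14 of denervation the difference was -2.77 (adjusted p = 0.00516 by limma). In control muscle it was -2.34 at day 3 (adjusted p = 0.063) and -1.08 at day 14 (0.275, by limma). Kcnq5, a voltage-gated potassium channel, had a difference of -2.56 (adjusted p = 0.0306 by limma), and adjusted p was 0.065 to 0.12 when any array other than knockout replicate 1 was left out. Its difference was -3.49 at day 14 of denervation (adjusted p = 0.00431 by limma). In control muscle it was -1.94 at day 3 (adjusted p = 0.203) and -3.23 at day 14 (0.0125, by limma). Its standard deviation among knockout arrays was 2.03 in denervated muscle of day 14 and 1.59 in control muscle of day 3. Sidt1, a transmembrane protein related to a double-stranded RNA transporter, fell by 1.90.

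Genes of glycolysis and glycogen use were higher in the knockout. Of 21 tested, 9 rose and 0 fell (42.9%, against 7.17% of all genes), and the median difference was 0.47, against 0.03 over all genes. The list's mean level was 12.84, 12.71 and 12.56 on the wild type arrays and 12.97, 13.18 and 13.38 on the knockout arrays, which did not overlap. Array means were also apart for several other lists, among them smooth muscle (0 of 11 genes called) and ribosomal proteins (1 of 30). Phkg1, the catalytic subunit of muscle phosphorylase kinase, was at 10.95, 10.80 and 10.46 in wild type and at 11.50, 12.23 and 12.36 in knockout. It rose by 1.29 (SE 0.19, adjusted p = 0.00039 by limma). Pygm, the muscle glycogen phosphorylase that this kinase activates, rose by 0.68, and Ugp2, which makes the UDP-glucose used for glycogen, by 0.54.

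Gpd1, the cytosolic glycerol-3-phosphate dehydrogenase, was at 13.23, 13.05 and 12.75 in wild type and at 13.79, 14.28 and 14.14 in knockout. It rose by 1.06 (SE 0.14, adjusted p = 0.000186 by limma). Pfkfb3, which makes the fructose-2,6-bisphosphate that activates phosphofructokinase, was at 9.56, 9.64 and 8.78 in wild type and at 10.21, 10.29 and 10.91 in knockout, a rise of 1.14. The enzymes of the pathway itself rose less: Pfkm, the muscle phosphofructokinase, by 0.60, Tpi1, triosephosphate isomerase, by 0.47, Eno3, the muscle enolase, by 0.62 and Ldha, lactate dehydrogenase A, by 0.62. A second probe gave 0.31 for Pfkm and -0.09 for Tpi1.

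With denervation at day 3 the median change of these 21 genes was -0.85 in wild type, with 12 called lower and 2 higher. In knockout it was -0.19, with 8 called lower and 3 higher. Both responses share the denervated arrays with the genotype contrast, and called 37.5% and 35.8% of all genes. In control muscle of day 3 the median genotype difference of the same 21 genes was -0.07 and no member was called, where 0.521% of all genes were called. The test of whether the genotype difference differed between denervated and control muscle called 3 of the 21, Phkg1, Pfkfb3 and Gpd1, against 1.08% of all genes. At day 14 of denervation the median was -0.10 and again no member was called, where 6.92% of all genes were called. Whether day 3 and day 14 differ was not tested. The call was kept under every removal of 1 array by 3 genes, Phkg1, Gpd1 and Ldha. Without knockout replicate 2 or 3, 4 or 3 members were called, without wild type replicate 2 or 3, 5 or 4, and with knockout replicates 2 and 3 both left out, or with the covariate, 0.

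Subunits of the proteasome, the protease that degrades ubiquitin-tagged proteins, were lower in the knockout. Of 31 tested, 0 rose and 11 fell (35.5%, against 7.17%), and 28 of the 31 had a difference below 0. Over all genes, 5233 of 11317 were below 0. So were 17 of 18 glutathione and antioxidant genes, 27 of 30 ribosomal proteins and 37 of 48 subunits of oxidative phosphorylation. The proteasome median was -0.38. The list's mean level was 12.88, 12.72 and 12.71 on the wild type arrays. On the knockout arrays it was 12.39, 12.37 and 12.47, without overlap, as for several other lists. Knockout replicate 1 was here as far from the wild type arrays as the other two.

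The members that fell came from the core and from the regulatory cap. Psmd14, the deubiquitinase of the cap, was at 12.13, 11.9997 and 12.08 in wild type and at 11.39, 11.20 and 11.11 in knockout, a difference of -0.84 (SE 0.16, adjusted p = 0.00564 by limma). Psma7, an alpha-ring subunit, was at 13.66, 13.59 and 13.72 in wild type and at 13.21, 12.84 and 12.76 in knockout, and fell by 0.72 (SE 0.13, adjusted p = 0.00259 by limma). Psmb5, which carries the chymotrypsin-like site, fell by 0.63 and Psmb2, a further beta-ring subunit, fell by 0.60. The differences of the other 7, Psma1, Psma2, Psma4, Psmb3, Psmb4 and the cap ATPases Psmc2 and Psmc4, ran from -0.67 to -0.38.

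Denervation at day 3 raised these 31 genes by a median of 0.92 in wild type and 0.73 in knockout, 2 responses that share the denervated arrays with the genotype contrast. The genotype difference differed between denervated and control muscle for 1 member, Psma7, against 1.08% of all genes. In control muscle of day 3 and in denervated muscle of day 14 no member was called, and the medians were -0.06 and 0.06. Of all genes, 0.521% and 6.92% were called there. Psmd14, Psma7, Psmb2, Psmb3 and Psmb5 kept their call without any 1 array. The count fell to 6 without knockout replicate 2, 5 without knockout replicate 3, 7 without wild type replicate 1 or 2 and 6 without wild type replicate 3. It was 0 without knockout replicates 2 and 3 together and with the covariate, where the medians were -0.33 and -0.44.

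**Figure D3:**
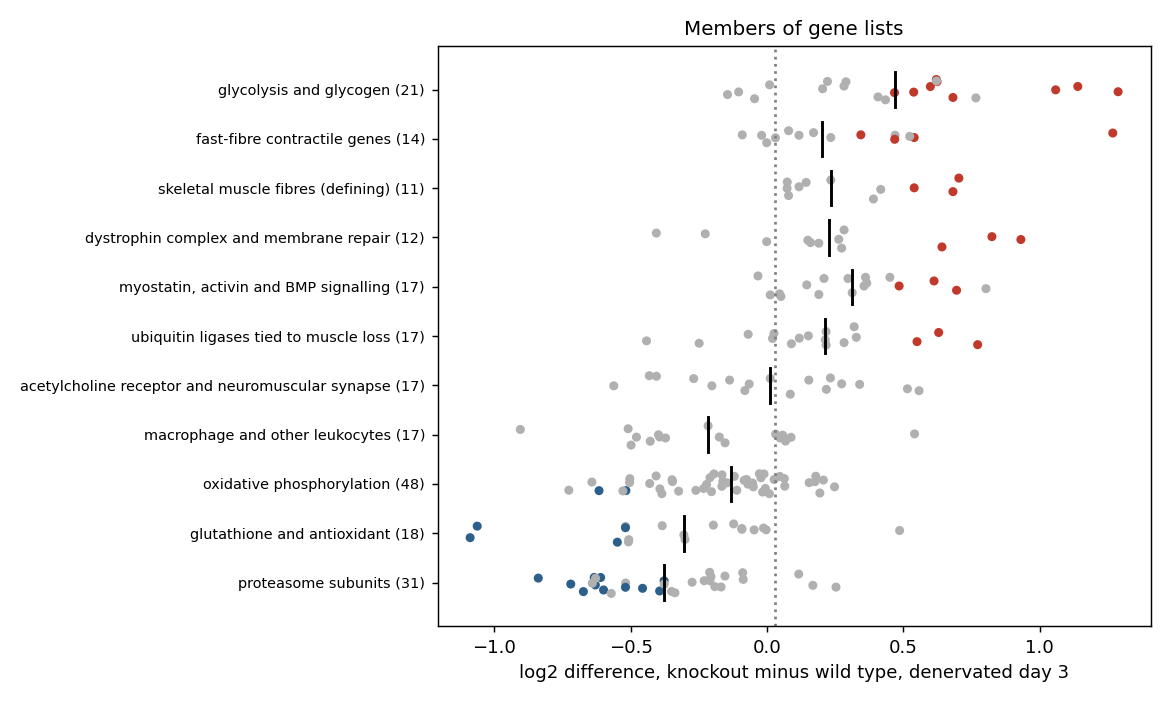
Log2 difference, knockout minus wild type in denervated muscle of day 3, for each tested member of 11 gene lists (number tested in brackets); red points are called higher, blue called lower and grey not called, and black bars are list medians. The dotted line is the median of all genes, 0.03. Glycolysis (median 0.47) and proteasome subunits (median -0.38) lie on opposite sides of it.

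Of 18 genes of glutathione use and antioxidant defence tested, 0 rose and 4 fell (22.2%, against 7.17% of all genes), with a median of -0.30. The count was 2 without knockout replicate 2 or wild type replicate 1, and 0 without knockout replicates 2 and 3 together or with the covariate. Gsta4, which detoxifies 4-hydroxynonenal, was at 11.07, 11.21 and 11.46 in wild type and at 10.39, 10.07 and 10.02 in knockout, and fell by 1.09 (SE 0.18, adjusted p = 0.00176 by limma). Nqo1, a quinone reductase, was at 10.67, 10.50 and 10.50 in wild type and at 9.61, 9.28 and 9.59 in knockout, and fell by 1.06 (SE 0.20, adjusted p = 0.00426 by limma). Neither gene's groups overlapped, and both kept their call without any 1 array. Gclm, a subunit of glutamate-cysteine ligase, fell by 0.55 and Sod1, a cytosolic superoxide dismutase, by 0.52, but the calls were lost without knockout replicate 2 (adjusted p = 0.067 and 0.13 by limma). The other probes of Sod1 gave -0.06 and 0.10. Chac1, which degrades glutathione and belongs to the amino acid stress response, was higher by 1.44 (adjusted p = 0.0429 by limma), and the call was lost when any array other than knockout replicate 1 was left out (adjusted p = 0.058 to 0.18). Denervation at day 3 changed Chac1 by -3.09 in wild type and by -1.27 in knockout.

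Contractile genes of fast fibres were called higher in 4 of 14 tested and lower in 0 (28.6%, against 7.17% of all genes), with a median of 0.20. Myh1, the myosin heavy chain of fast 2X fibres, was at 8.35, 8.53 and 8.77 in wild type and at 9.26, 9.89 and 10.31 in knockout, a rise of 1.27 (SE 0.34, adjusted p = 0.0298 by limma). Myh4, the heavy chain of 2B fibres, rose by 0.54, Myh2, that of 2A fibres, by 0.34, and Myoz1, a Z-disc protein of fast fibres, by 0.47. The myosin heavy chains are near copies of each other, and which of them a probe reads is uncertain. No member was called without knockout replicate 2, knockout replicate 3, wild type replicate 2 or wild type replicate 3, and 1 was without wild type replicate 1. All 11 tested defining muscle genes had a difference above 0, as did 6084 of 11317 genes in all. Of the 11, 3 were called (27.3%), Myh4, Actn2 and Pygm. The mean level of the 11 was 14.74 to 14.81 in wild type and 14.95 to 15.21 in knockout. Slow-fibre genes (10 tested) and developmental isoforms (9 tested) had 0 calls.

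The dystrophin complex, which ties the fibre's cytoskeleton to the matrix, had 3 of 12 tested members higher and 0 lower. That is 25%, against 7.17% of all genes, and the median was 0.23. Dmd, dystrophin itself, was at 10.58, 10.69 and 10.42 in wild type and at 10.97, 11.27 and 11.93 in knockout, a rise of 0.82 (SE 0.19, adjusted p = 0.0167 by limma). Sspn, sarcospan, rose by 0.93 (adjusted p = 0.00504 by limma), and Dag1, dystroglycan, by 0.64, though its groups overlapped. Sspn kept its call without any 1 array, while Dmd lost it without wild type replicate 3 (adjusted p = 0.082) or knockout replicate 3 (0.11) and Dag1 without wild type replicate 2 or 3 or knockout replicate 2 or 3 (0.12 to 0.23, all by limma). Actn2, the Z-disc alpha-actinin, rose by 0.70, with -0.11 on a second probe.

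Of 17 other tested ubiquitin ligases tied to muscle loss, 3 rose and 0 fell (17.6%, against 7.17% of all genes). Of the 17, 1 was called without knockout replicate 2, knockout replicate 3 or wild type replicate 2. Fbxo32, which encodes atrogin-1, the ligase usually studied beside MuRF1, was at 12.19, 11.34 and 11.53 in wild type and at 11.60, 11.57 and 11.96 in knockout. The groups overlapped and the difference was 0.03 (SE 0.28, adjusted p = 0.969 by limma). Its sign turned under 6 alternative settings. Fbxo30, the ligase MUSA1, was at 8.49, 8.41 and 8.71 in wild type and at 8.83, 9.52 and 9.57 in knockout, a rise of 0.77 (SE 0.19, adjusted p = 0.0184 by limma), with 0.13 on a second probe. Nedd4l, a HECT-type ligase, rose by 0.63 (adjusted p = 0.00599 by limma, 0.10 on a second probe) and kept its call without any 1 array. Asb2, a cullin adaptor, rose by 0.55, and Fbxo30 and Asb2 lost their calls without knockout replicate 2 (adjusted p = 0.11 and 0.16 by limma).

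Foxo1, a transcription factor that drives ligase genes in wasting muscle, was at 7.18, 7.17 and 7.29 in wild type and at 7.996, 8.68 and 8.81 in knockout. It rose by 1.28 (SE 0.21, adjusted p = 0.00111 by limma), with 0.53 on a second probe, and kept its call without any 1 array. Klf9, a glucocorticoid-induced zinc finger factor, was at 12.54, 12.59 and 12.52 in wild type and at 13.16, 13.38 and 13.18 in knockout, and rose by 0.69 (SE 0.14, adjusted p = 0.00643 by limma). The clock gene Per1 fell by 0.77, with -0.0048 on a second probe. The glucocorticoid and FoxO list of 16 tested genes thus held 2 rises and 1 fall, with a median of 0.08. That is 18.8%, against 7.17% of all genes. The fall was not called without knockout replicate 2 or 3 or wild type replicate 1 or 3, with median centring or with the covariate.

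Of 17 tested genes of myostatin, activin and BMP signalling, 16 had a difference above 0. Of the 17, 3 rose and 0 fell (17.6%, against 7.17% of all genes). Over all genes, 6084 of 11317 were above 0. The list's mean level was 8.76, 8.86 and 8.83 in wild type and 9.10, 9.14 and 9.15 in knockout, without overlap and with the 3 knockout arrays close together. Means were also apart for several other lists, smooth muscle with 0 calls among them. Acvr2b, the activin receptor that binds myostatin, was at 9.25, 8.98 and 8.83 in wild type and at 9.45, 10.02 and 9.68 in knockout, a rise of 0.70 (SE 0.16, adjusted p = 0.0158 by limma). Tgfbr2, the type II receptor for TGF-beta, rose by 0.61 and Smad3, a signal-transducing SMAD, by 0.48. No member was called without knockout replicate 2, knockout replicate 3 or wild type replicate 3. With the covariate 2 were.

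In the IGF, insulin and mTORC1 list 2 of 19 tested rose and 1 fell (15.8%, against 7.17% of all genes). Igfbp3, a binding protein of IGFs, rose by 1.03 (adjusted p = 0.00995 by limma) and Deptor, an inhibitor of mTOR, by 0.71 (adjusted p = 0.00972 by limma). Tsc1, an inhibitor of mTORC1, had a difference of -0.95 (adjusted p = 0.0167 by limma), while 2 further probes gave -0.10 and 0.14. All 3 lost their call without knockout replicate 3 (adjusted p = 0.054 to 0.069 by limma).

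Translation factors included 3 of 21 tested that fell and 1 that rose (19%). Their median was -0.11, but 0.11 with median centring, where that of all genes was 0.22. Eif6, which holds the large ribosomal subunit free, was at 12.61, 12.50 and 12.57 in wild type and at 11.95, 11.50 and 11.61 in knockout, a difference of -0.87 (SE 0.13, adjusted p = 0.00039 by limma), with -0.02 on a second probe. Eif4a1, an RNA helicase of initiation, fell by 0.74 (adjusted p = 0.00357 by limma). The member that rose, Eef2k, a kinase that inhibits elongation, did so by 0.77 on its brightest probe, while its other probes gave -0.60 and -0.38 and the mean of its probes gave -0.072. Among 30 tested ribosomal proteins 1 fell, Rpl38, and among 48 tested subunits of oxidative phosphorylation 2 fell, Ndufb3 and Uqcrb, shares of 3.33% and 4.17% that lie below the 7.17% of all genes. In these 2 lists 27 of the 30 and 37 of the 48 had a difference below 0. Autophagy and lysosomal genes were called in 4 of 21 tested: Sqstm1, an autophagy receptor, fell by 0.50, and Bnip3l, Pik3c3 and Trp53inp2 rose by 0.49, 0.62 and 0.45. None of the 4 kept its call without every single array in turn.

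Lists that mark denervation itself had no calls with quantile normalization. The acetylcholine receptor and neuromuscular synapse (17 tested) had 0 calls, differences from -0.56 to 0.56 and a median of 0.01, although denervation raised these genes by a median of 0.71 in wild type. With median centring 3 of the 17 were called higher and the median was 0.25. Over all genes that setting called 1145 of 11317 higher, and the median was 0.22. At day 14 of denervation 10 of the 17 were lower in the knockout, with a median of -0.62, where 6.92% of all genes were called. Whether the days differ was not tested. Myogenic and denervation-signalling regulators (15 tested) had 0 calls and a median of -0.01; with median centring 2 were called higher and the median was 0.29. Differences from -0.64 to 0.51 in this second list were not called either, with a median standard error of 0.19 over all genes. The lack of calls therefore does not show that the genotypes were equal for these genes.

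Genes of acute phase and chemokine type fell in 3 of 18 tested and rose in 0 (16.7%, against 7.17% of all genes). Beside Orm2 these were Slpi, a secreted protease inhibitor, and Orm1, the paralog of Orm2. Slpi was at 10.01, 10.42 and 10.997 in wild type and at 9.93, 8.83 and 7.41 in knockout, and fell by 1.75 (SE 0.39, adjusted p = 0.0127 by limma). Orm1 was at 9.39, 9.05 and 9.22 in wild type and at 8.06, 7.25 and 6.69 in knockout, and had a difference of -1.89 (adjusted p = 0.0471 by limma). Slpi lost its call without knockout replicate 3 (adjusted p = 0.071) and Orm1 when any array other than knockout replicate 1 was left out (0.10 to 0.20, by limma). Orm1 and Orm2 are close copies, and a probe may read both. For all 3 genes knockout replicate 3 was the lowest array and knockout replicate 1 the highest of the knockout arrays.

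Leukocyte markers moved in the same order. All 17 tested markers of macrophages and other leukocytes, of 22 listed, were detected on every array of both groups and 0 were called. Their summed level was 15.0002 to 15.24 in wild type and 15.25, 15.05 and 14.33 on knockout replicates 1, 2 and 3. Fibroblast markers (11 tested, 1 called higher, Dcn, 9.09% against 7.17% of all genes) summed to 14.88 to 15.20 in wild type and to 15.52, 15.50 and 15.12 in knockout. Proliferation genes (18 tested, 2 lower, Cdk1 and Aurkb, 11.1%) had mean levels of 6.68 to 7.21 in wild type and 6.84, 6.66 and 6.37 in knockout. Of the 18, 0 were called without knockout replicate 3, without wild type replicate 2 or 3, or with the authors' processed values. Neutrophil and mast cell markers (7 tested, 0 called) summed to 12.91 on knockout replicate 1 and to 11.29 to 11.77 on the other 5 arrays. In bulk muscle, fewer cells of a type and less RNA per cell cannot be told apart, and the part of other cell types in these differences was not tested.

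**Figure D4:**
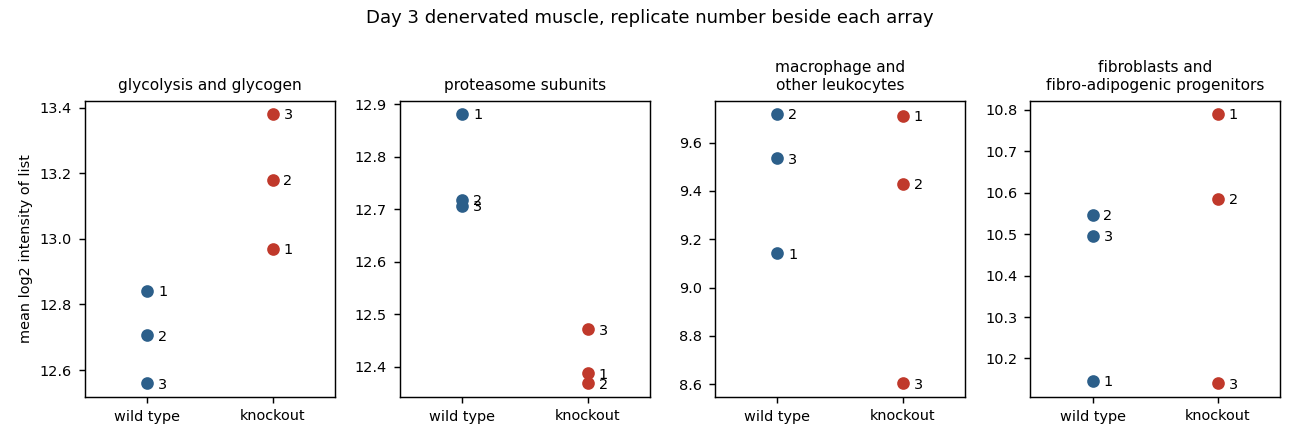
Mean log2 normalized intensity (vertical axis) of 4 gene lists on each array of denervated muscle of day 3, wild type in blue and knockout in red, with the replicate number beside each point. The groups are apart for glycolysis and for proteasome subunits; for macrophage and fibroblast markers they overlap, and knockout replicate 3 is the lowest array in both.

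Markers of adipocytes had 1 of 10 tested called (10%, against 7.17% of all genes). This was Car3, a carbonic anhydrase that muscle fibres also express. It was at 14.85, 14.81 and 14.40 in wild type and at 15.20, 15.54 and 15.61 in knockout (difference 0.76, adjusted p = 0.00302 by limma). The adipocyte list summed to 15.05 to 15.40 in wild type and 15.59 to 15.89 in knockout. Endothelial markers had 2 of 17 called higher, Tek and Plvap (11.8%, against 7.17% of all genes), and 0 without wild type replicate 1 or 3 or knockout replicate 2 or 3. Lists for smooth muscle (11 tested), Schwann cells (7), satellite cells (5), tendon (9), red cells (4), T and NK cells (4) and B cells (2) had 0 calls.

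Chromosome 4, which carries Trim63, held a large share of the calls. There, 89 of 687 tested genes were called (13%), 30 of them at least 2-fold, against 722 of 10613 (6.8%) on other chromosomes, 82 of them at least 2-fold. Within 5 Mb of the Trim63 start, 127 other genes were tested, and 9 rose and 17 fell (20.5%). Similar shares were also found farther away: in stretches of 10 Mb, 18.5% and 19.4% of genes were called just before and after the Trim63 start, 22% of 41 genes at 20 to 30 Mb after it and 19.5% of 41 genes at 20 to 30 Mb before it. In control muscle of day 3, which called 0.521% of all genes, the last 2 stretches held 0 calls. The 2 next to Trim63 held 8 and 12. Trim63 itself counts in the stretch after its start. In denervated muscle of day 3 the count of 26 within 5 Mb became 14 without knockout replicate 2 and 12 without knockout replicate 3. It was 17 and 14 without wild type replicate 2 or 3, and 41 without knockout replicate 1. The median difference of the 127 genes was -0.09 with all arrays and -0.006 without knockout replicates 2 and 3 together. Positions are distances in the RefSeq gene table.

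**Figure D5:**
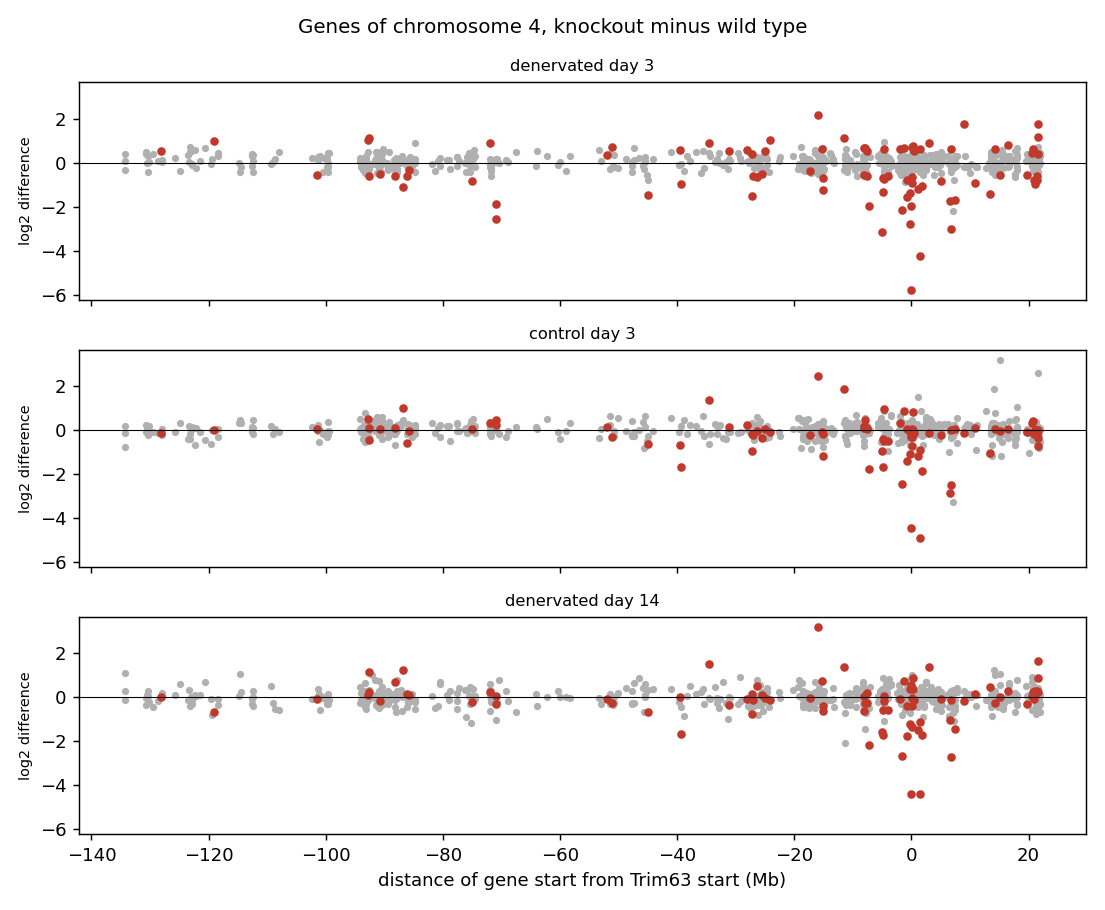
Log2 difference, knockout minus wild type, of each tested gene on chromosome 4 against the distance of its start from the Trim63 start in Mb, for denervated muscle of day 3, control muscle of day 3 and denervated muscle of day 14. Red points are the 89 genes called in denervated muscle of day 3 in all 3 panels. Falls of more than 2 log2 units lie mostly within 10 Mb of Trim63.

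Several genes of chromosome 4 also differed by genotype in muscle that shares no array with the contrast. Pnrc2, a nuclear receptor coactivator, was at 10.09, 10.29 and 10.22 in wild type and at 5.89, 5.83 and 6.09 in knockout, a difference of -4.26 (SE 0.16, adjusted p = 9.26e-14 by limma). Its difference was -4.94 in control muscle of day 3 and -4.39 in denervated muscle of day 14. Necap2, an adaptor of endocytosis whose start lies 6.75 Mb from that of Trim63, was at 10.82, 10.91 and 10.73 in wild type and at 7.93, 7.94 and 7.48 in knockout, a difference of -3.04 (SE 0.38, adjusted p = 6.87e-05 by limma), beside -2.50 in control muscle and -2.74 at day 14. Zbtb8os was detected on no knockout array and was at least 4.85-fold lower. Eya3, a phosphatase and transcriptional coactivator, fell by 2.17, with -0.44 on a second probe.

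Other large differences on chromosome 4 were called in fewer contrasts. Cd52, a surface glycoprotein of leukocytes whose start lies 0.222 Mb from that of Trim63, was at 7.59, 8.35 and 8.06 in wild type and at 5.996, 4.95 and 4.68 in knockout, where 1 of 3 arrays detected it. The groups did not overlap, and the difference was -2.79 (SE 0.36, adjusted p = 9.85e-05 by limma). It was -1.12 in control muscle of day 3 (adjusted p = 0.158) and -1.23 at day 14 of denervation (0.0404, by limma). Its call was lost with the covariate (adjusted p = 0.051) and without knockout replicates 2 and 3 together (0.10, by limma). Zfp593, a zinc finger protein tied to ribosome assembly in yeast, is 0.0718 Mb from Trim63, and was at 12.63, 12.39 and 12.21 in wild type and at 10.68, 10.39 and 10.24 in knockout, a fall without overlap (adjusted p = 4.8e-07 by limma). Its difference was -1.97, with -1.30 on a second probe, and at day 14 it was 0.55 (adjusted p = 0.0611 by limma). Lrrc38, an auxiliary subunit of BK potassium channels at 9.03 Mb, was higher by 1.76 (adjusted p = 0.0041 by limma), and kept its call without any 1 array. Denervation at day 3 changed Lrrc38 by -4.30 in wild type and by -2.42 in knockout. B3galt6, a galactosyltransferase of proteoglycan synthesis at 21.7 Mb, was higher by 1.75 (adjusted p = 0.0495 by limma), with 0.24 on a second probe. Wild type replicate 2, at 5.30, was the lowest array of B3galt6, and without it the difference was 1.08 (adjusted p = 0.23 by limma).

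Hyi, a hydroxypyruvate isomerase on the same chromosome and 15.96 Mb from Trim63, was higher in the knockout, at 8.30, 8.65 and 8.53 in wild type and 10.93, 10.60 and 10.42 in knockout. It rose by 2.15 (SE 0.32, adjusted p = 0.000618 by limma), with 0.43 on a second probe, and was higher by 2.43 in control muscle and 3.197 at day 14. Selenon, selenoprotein N, whose loss causes a congenital myopathy in humans, rose by 0.76, beside 0.79 in control muscle and 0.85 at day 14.

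In all, 18 genes (0.159%) were called the same way in denervated muscle of day 3, control muscle of day 3 and denervated muscle of day 14, 6 higher and 12 lower. Chromosome 4 held 17 of the 18. In control muscle of day 14 all 18 differed in the same direction and 12 were called. The 6 not called there were Hyi, Itgb3bp, Selenon, Necap2, Cap1 and Zbtb8os, with differences of 1.07, 0.88, 0.43, -1.20, 0.21 and -0.19 (adjusted p = 0.0565 to 0.609 by limma). The exception was Wdfy1, a FYVE-domain protein of endosomes on chromosome 1, at 8.37, 8.23 and 8.23 in wild type and 10.88, 10.89 and 10.50 in knockout, a rise of 2.48 (SE 0.28, adjusted p = 2.18e-05 by limma), with 0.77 on a second probe. Its difference was 2.11 in control muscle and 2.89 at day 14. Cap1, an actin-cycling protein, rose by 1.10, Itgb3bp, a centromere protein, by 0.91 and Ahdc1 by 0.64. Zmym6, Gpn2 and Bsdc1 fell by 1.96, 1.57 and 1.36.

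Most of the 811 genes had no such counterpart. In control muscle of day 3, 23 of the 811 (2.84%) were called the same way and 1 the opposite way, where 0.521% of all genes were called. The 23 are 38.98% of the 59 genes called there. In denervated muscle of day 14, 77 (9.49%) were called the same way and 45 the opposite way, where 6.92% of all genes were called. For control muscle of day 14, 89 (10.97%) were called the same way and 4 the opposite way, where 5.51% were called. The sign was the same for 59.4% of the 811 in control muscle of day 3, against 52.8% of all genes, for 40.3% against 42.3% at day 14 of denervation, and for 78.5% against 64% in control muscle of day 14. These pairs of contrasts share no arrays.

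A genotype difference that itself differed between denervated and control muscle of day 3 was called for 122 genes (1.08%), 73 higher and 49 lower in denervated muscle. Of the 811 genes, 96 (11.8%) were among them. This interaction uses the arrays of the main contrast. The 96 include Neu2, Fgfbp1, Ddit4l, Chrna10, Ramp1 and Cops8, which were higher in knockout after denervation with control differences from -0.98 to 0.08, and Orm2, Gsta1, Gsta2, Zfp593 and Sidt1, which were lower with control differences from -0.33 to 0.19. Control muscle of the knockout gave no detected signal for these last 5 genes, and that of wild type gave one for Zfp593 alone, on 2 of 3 arrays, so their control differences are between levels at background.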

How the data were processed

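RNA of 24 samples of mouse triceps surae muscle, 3 in each of 8 groups, had been read on 1-colour Illumina arrays; the 8 groups were taken from the sample labels. The deposited table holds, per the file headers, a linear intensity and a detection p-value for each of 46632 probes. BeadStudio 3.2.3 made it, per the submitters' processing notes. The authors' processed values are also intensities, and served as an alternative. Background correction from the detection p-values, an offset of 16, quantile normalization and log2 used neqc of limma 3.58.1 in R 4.3.3. Probes with a detection p under 0.05 on at least 3 of 24 arrays were kept, 21997 in all. The array's annotation gave 29976 probes 1 symbol, 10 several and 16646 none; 29921 matched current genes by Entrez identifier. The brightest probe stood for each of 11317 genes, 3610 of which had more than 1.

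All arrays entered 1 limma model of 8 groups (16 residual degrees of freedom), and tests were two-sided with Benjamini-Hochberg adjustment. The code was tested on simulated data. The median standard error of a log2 difference was 0.19, and 0.27 for the interaction; the number of arrays limits the precision. For a probe undetected throughout a group, "at least" folds were taken against a floor per array: its weakest signal that passed detection, or that of the probe where brighter. The genes named are Trim63, the 14 largest rises and falls with groups apart, the 8 largest in each direction that kept their call under every removal of arrays and the covariate, the 8 largest in each direction called the same way in 3 genotype contrasts, and members of 49 gene lists; predicted genes were passed over. Members and lists were chosen with earlier results of these data known. Same-numbered samples of the 2 genotypes did not all deviate together (r of -0.29, 0.06 and -0.14), nor did those of denervated and control knockout muscle (0.04, 0.03 and 0.39), so the numbers were not taken as pairs. Promoter windows are RefSeq sequences of GRCm38.p6.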

Additional observations from a re-analysis of the deposited data

Results flagged for a closer look

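The genotype difference in denervated muscle of day 3 differed from that in control muscle of day 3 for 24 of the genes named, by the interaction test of limma with adjusted p under 0.05. The values are denervated minus control differences on the log2 scale. Among genes higher in the knockout after denervation they were 2.85 for Cops8, 2.75 for Fgfbp1, 2.34 for Ddit4l, 2.30 for Pfkfb3, 2.13 for Ccdc110, 2.04 for Neu2 and 1.65 for Thap4. They were 1.45 for Phkg1, 1.27 for Tek, 1.20 for Chrna10, 1.16 for Gpd1, 1.11 for Ramp1, 1.09 for Sspn, 1.04 for Deptor and 0.88 for Actn2. Among genes lower in the knockout they were -2.74 for Orm2, -2.31 for Gsta1, -2.20 for Zbtb8os, -2.08 for Gsta2, -2.04 for Sidt1, -1.64 for Zfp593, -1.34 for Trim63, -0.80 for Psma7 and -0.79 for Eif6. For 9 of the 24 at least 1 of the 4 groups had no array that detected the gene, so the size given is that of the fit and not a measured difference. No knockout array of either day 3 group detected Trim63, Zbtb8os or Gsta1. No control array of either genotype detected Orm2, Gsta1, Gsta2 or Sidt1, no knockout control array Zfp593, and no denervated wild type array Fgfbp1 or Ccdc110.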

How the results depend on the processing

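The main contrast gave 811 calls. It gave 1294 with median centring, 73 with only the groups compared in the fit, 40 with the detected-probe covariate, 3017 with array weights and 28 without knockout replicates 2 and 3. Leaving out 1 array gave 180 to 2168. The authors' processed values, no filter, the stricter filter and the mean of probes gave 753, 681, 1145 and 647. Control muscle of day 3 gave 59 calls, and 26 with median centring, 102 with the stricter filter, 17 with only its groups, 93 with the covariate, 1021 with array weights and 28 to 401 without 1 array. Denervated muscle of day 14 gave 783 calls, and 520, of which 138 higher, with median centring, 1791 with the covariate, 2243 with array weights and 300 to 683 without 1 array. The interaction gave 122 calls, and 80 with the authors' values, 60 without a filter, 185 with the stricter filter, 17 with only its groups, 70 with the mean of probes, 10 with the covariate, 2225 with array weights, 3 without knockout replicates 2 and 3 and 31 to 983 without 1 array. With median centring 90 of 111 interaction calls were higher. The replicate number as a replicate block gave 584, 62, 585 and 60 calls in these 4 contrasts. The difference of Fbxo32 turned from 0.03 to -0.14 with the mean of probes, -0.026 with the covariate and -0.084 without knockout replicates 2 and 3, and was -0.15 to 0.28 without 1 array. Of the other 104 named genes, all called, 84 lost their call with the covariate, 86 without knockout replicates 2 and 3, 68 with only the groups compared, 22 with the mean of probes, 19 with the replicate block, 4, 47 and 52 without knockout replicate 1, 2 or 3 and 24, 37 and 49 without wild type replicate 1, 2 or 3. In these settings 1 direction changed, that of Eef2k, whose difference turned from 0.77 to -0.072 with the mean of probes. The causes were not tested. The headers used here give no chip numbers, so the chip as a block was not run; nor was the removal of knockout replicates 2 and 3 for the contrasts that do not use them. Fits in which only 1 knockout array remained assume that it varies like the other groups. With 3 arrays a group the number of arrays limits what can be told apart.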

Other observations

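Chosen after its values were seen, a stretch of chromosome 1 around Cops8 held several of the rises. In the 10 Mb after the Cops8 start, Cops8 itself included, 8 of 38 genes tested were called, 6 higher and 2 lower. That is 21.1%, against 7.17% of all genes, and in the 10 Mb before Cops8 5 of 46 were called (10.9%). On all of chromosome 1 the share was 9.77%, and other stretches of 10 Mb were also above it, with 33.3% of 12 genes at 20 to 30 Mb after the Cops8 start and 18.6% of 43 genes at 30 to 40 Mb before it. No gene of the 2 stretches next to Cops8 was called in control muscle of day 3. There, 0.521% of all genes were called, and 26 of 687 on chromosome 4. For Cops8, wild type replicates 1 and 2 of denervated day 3 muscle, at 8.16 and 8.10, and to a lesser degree replicate 3, at 10.61, were below the group means of 11.49 to 12.03 in the other 7 groups of the series. No cause was tested.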
